A study of Mus musculus with 6 samples.

Results

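Rab GTPases are small proteins that direct membrane traffic. Each cycles between an active form bound to GTP, which sits on a particular membrane and recruits effectors that move, tether or fuse vesicles, and an inactive form bound to GDP. Exchange factors switch them on, GTPase-activating proteins switch them off, and lipid tails added by geranylgeranyl transferase anchor them in the membrane. Megakaryocytes, the bone marrow cells that shed platelets, use them to build the granules and the internal membranes that platelets inherit. Rab27a and Rab27b act in granule release, and Rab32 and Rab38 act in the making of platelet dense granules and melanosomes.

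The Rab genes were taken as every gene on the array whose annotated symbol is Rab followed by a number and at most 1 letter, so that regulators such as Rabgap and Rabep genes stayed outside. This gave 53 genes, measured by 69 probes, of 15967 genes with a probe of 1 symbol. A gene with several probes was represented by the probe of highest mean log2 intensity. A probe was tested where its signal exceeded the negative control beads (detection p under 0.05) in all 3 arrays of either group, and 34 of the 53 Rab genes met this, among 6864 tested genes.

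The samples were megakaryocyte progenitors of C57BL/6 mouse bone marrow, from which lineage-marked cells had been removed. After a night with stem cell factor plus thrombopoietin, CD41+ c-kit+ cells were sorted and grown for 3 days with thrombopoietin alone. The 3 wild-type samples are labelled SRF+/+ and the 3 knockout samples SRF-/-, with Srf deleted by Cre recombinase under the promoter of Pf4, a gene of megakaryocytes and platelets. The labels do not say whether the wild-type mice carried the Cre or a floxed allele, and give no age. The series names 3 mice of each kind without tying a replicate number to a mouse, so the p-values describe variation among these 6 samples, part of which may be technical. The comparison asks which Rab transcripts differ in progenitors without serum response factor (SRF), a transcription factor of cytoskeletal genes. Levels are log2 intensities after background correction and quantile normalization, and are compared between arrays for 1 probe at a time. Where paralogs are paired, only the change in the difference between their probes is read, not its level.

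The arrays detected 9801 to 10364 of 24611 probes each. Srf lay between 11.89 and 12.31 in the wild-type arrays and between 7.20 and 7.56 in the knockout arrays, 25.8-fold lower in the knockout (limma adjusted p = 5.4e-05). All 17 megakaryocyte and platelet markers on the array were detected on every array, with mean levels of 11.72 to 12.04 in wild-type and 11.99 to 12.31 in knockout. The arrays of 1 group were not alike in other cells' transcripts. Mpo, a granule enzyme of granulocyte precursors, lay at 7.64, 14.74 and 14.93 in wild-type arrays 1, 2 and 3 and at 13.07, 8.13 and 8.98 in the knockout. Cpa3, a mast cell and basophil protease, lay at 6.62, 12.64 and 12.88 in wild-type and at 8.21, 7.17 and 8.09 in knockout. Wild-type replicates 2 and 3 therefore stood apart from wild-type replicate 1 in both. Over the whole list of 15 mast cell and basophil markers, 2, 7 and 7 were detected in the wild-type arrays and 3, 4 and 4 in the knockout arrays, with mean levels of 5.92, 7.62 and 7.68 against 6.14, 6.04 and 6.19. The mast cell proteases Cma1, Tpsab1, Tpsb2 and Mcpt4 were detected on no array. Mcpt8, of the same list, lay at 5.49 (below detection), 11.45 and 11.97 in wild-type and at 6.10, 6.14 and 6.83 in knockout. Of 14 granulocyte markers, 9, 11 and 11 were detected in wild-type and 11, 8 and 10 in knockout, with means of 6.70, 8.92 and 9.09 against 9.21, 6.60 and 7.05. The list means of erythroid and of monocyte and macrophage markers were also highest in wild-type replicates 2 and 3. For the 8 erythroid markers, 4 or 5 of them detected per array, they were 7.19, 7.73 and 7.74 in wild-type against 7.25, 7.11 and 7.16. For the 8 monocyte and macrophage markers, 3 to 5 detected, they were 6.65, 7.74 and 7.85 against 7.54, 6.72 and 6.94. Single members differed. Aqp1 (8.40, 10.18 and 10.30 in wild-type), Klf1 (6.70, 8.64 and 9.20) and Ly6c1 (6.25, 12.06 and 12.46) followed the means. Epor (8.52, 8.23 and 7.98) and Mrc1 (9.40, 8.64 and 8.12) went the other way. Lyz2 (10.97, 11.29 and 11.41) was highest in knockout replicate 1, at 11.98. The globin genes Hbb-b2 and Hba-a1 and the monocyte marker Cd14 were detected on no array. The mean of the 8 lymphocyte markers, 1 or 2 of them detected, lay between 5.54 and 5.65 on all arrays. In bulk RNA, fewer cells of a type and less RNA per cell cannot be told apart.

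Because SRF binds DNA at the CArG box, the promoter windows of the Rab genes are shown before the values. RefSeq windows on GRCm38.p6, from 250 bases before to 50 bases after each annotated start, matched 44 of the 53 Rab genes with 55 windows. A CArG box on either strand was found in 1 of these 55 windows (1.82%), against 1.63% of all 32851 windows. That window belongs to Rab11a, a Rab of recycling endosomes, at chr9:64737707-64738006 on the minus strand, with the match beginning 154 bases before the start. It is printed 5′ to 3′ with the CArG box in capitals.
Rab11a: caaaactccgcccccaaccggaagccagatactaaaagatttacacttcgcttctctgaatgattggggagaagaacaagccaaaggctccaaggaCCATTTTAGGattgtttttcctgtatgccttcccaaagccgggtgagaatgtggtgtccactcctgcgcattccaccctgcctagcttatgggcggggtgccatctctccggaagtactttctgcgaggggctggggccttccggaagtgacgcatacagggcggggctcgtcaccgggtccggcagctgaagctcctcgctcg
GGGCGG, a motif known to bind Sp family factors in housekeeping promoters, was found on either strand in 37 windows (67.3%, against 35.7% of all windows), and the Rab windows were also richer in G and C (median 61.3% against 52.7%). The windows of Rab5b (chr10:128696219-128696518, minus strand) and Rab1b (chr19:5106947-5107246, minus strand) are shown because these genes had 2 of the 3 largest differences between the groups. Neither held a CArG box, and each held 2 copies of GGGCGG, in capitals on whichever strand it was read.
Rab5b: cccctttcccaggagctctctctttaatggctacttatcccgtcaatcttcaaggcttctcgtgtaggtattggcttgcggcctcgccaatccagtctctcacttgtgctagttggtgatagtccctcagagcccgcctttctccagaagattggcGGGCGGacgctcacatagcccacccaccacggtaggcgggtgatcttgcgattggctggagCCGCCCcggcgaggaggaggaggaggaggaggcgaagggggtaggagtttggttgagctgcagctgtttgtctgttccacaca
Rab1b: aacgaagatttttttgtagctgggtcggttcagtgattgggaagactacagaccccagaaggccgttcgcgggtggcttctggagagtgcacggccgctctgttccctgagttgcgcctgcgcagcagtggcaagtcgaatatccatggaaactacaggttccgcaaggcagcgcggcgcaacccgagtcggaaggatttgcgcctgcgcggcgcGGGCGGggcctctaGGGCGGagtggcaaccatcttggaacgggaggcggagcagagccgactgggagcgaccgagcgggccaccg
The sequence GTCACGTGAC, an extended E-box that contains the shorter CACGTG, was found in 3 of 55 Rab windows (5.45%) and in 0.326% of all windows. CACGTG was found in 6 Rab windows, those 3 included (10.9%, against 7.15%). The 3 windows with the longer sequence belong to Rab5a and Rab21, both Rabs of early endosomes, and Rab24, a Rab linked to autophagy. A stretch of 50 bases around each match (capitals) is given, from chr17:53479117-53479166 on the plus strand for Rab5a, chr10:115315594-115315643 on the minus strand for Rab21 and chr13:55321951-55322000 on the minus strand for Rab24.
Rab5a: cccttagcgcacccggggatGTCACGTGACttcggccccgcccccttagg
Rab21: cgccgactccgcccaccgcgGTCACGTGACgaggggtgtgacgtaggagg
Rab24: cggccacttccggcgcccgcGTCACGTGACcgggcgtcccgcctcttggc
The match began 97 bases before the start in Rab5a, 32 bases before it in Rab21 and at the start itself in Rab24. AGATAA, the core letters bound by GATA factors, was found in 1 Rab window, that of Rab43 (1.82%, against 11.2% of all windows). AGATAA is poor in G and C, and the Rab windows were rich in them (median 61.3% against 52.7%). The part of base composition in this share was not tested. CCGGAAG, bound by Ets factors, was found in 5 (9.09%, against 8.86%). All motifs were searched on both strands, and a match is a description of the letters, not of a bound site.

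No Rab gene passed the test for a difference between knockout and wild-type. Of the 34 tested Rab genes 0 had a limma adjusted p under 0.05, and the adjusted p ranged from 0.27 to 0.92, where 0.160% of all 9403 tested probes passed. At an unadjusted p under 0.05, 4 Rab genes were counted (Rab1b, Rab5b, Rab23 and Rab27a), which is 11.8% of those tested, near the 13.7% of all tested probes. Rab23 was tested only through its detection in the knockout, the group where it was higher. Among the 33 Rab genes detected on all 6 arrays the count was 3 (9.09%, against 12% of the 8576 probes so detected). The differences, knockout minus wild-type on the log2 scale, ran from -0.45 for Rab27a to 1.06 for Rab5b. Their median size without regard to sign was 0.18, against 0.19 over all tested genes. A difference under 0.25 in size was measured for 22 Rab genes (64.7%, against 60.8% of all tested genes), and one of 0.5 or more for 4 (11.8%, against 12.3%).

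The precision of this null can be stated. Standard errors of the 34 differences ran from 0.13 to 0.38, with a median of 0.15. The 95% interval lay within 1 log2 unit of 0, a doubling or halving, for 28 genes and within 0.5 for 14. The genes whose interval reached beyond 1 were Rab1b, Rab4a, Rab5b, Rab10, Rab23 and Rab27b.

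By mean, 24 Rab genes were higher in the knockout and 10 lower. The share higher was 70.6%, against 51.3% of all tested probes and 49.0% of tested genes at 1 probe per gene, and the median difference was 0.09 against -0.01 over genes. This split depended on the arrays used. Without wild-type replicates 2 and 3, which leaves a lone wild-type array, it was 20 higher and 14 lower (58.8%, against 48.7% of all tested probes). With a term for the mean of the mast cell and basophil markers it was 19 and 15 (55.9%, against 49.4%). With scaling to the 75th percentile in place of quantile normalization it was 21 and 13 (61.8%, against 46.8%). Without knockout replicate 1 it was 26 and 8 (76.5%, against 52.7%). Megakaryocyte and platelet markers were also mostly higher in the knockout by mean, 15 of 17 with a median difference of 0.32. Of these 17, 0 passed the limma test and 4 had an unadjusted p under 0.05 (23.5%, against 13.7% of all tested probes). The marker with the smallest p, Ppbp, was lower in the knockout (-0.82, SE 0.17, limma adjusted p = 0.25). Itga2b (0.47, SE 0.13) and Gp1bb (0.77, SE 0.23) were higher. The part of these markers in the Rab split was not tested. The plot of differences with their intervals shows all 34 genes.

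**Figure D1:**
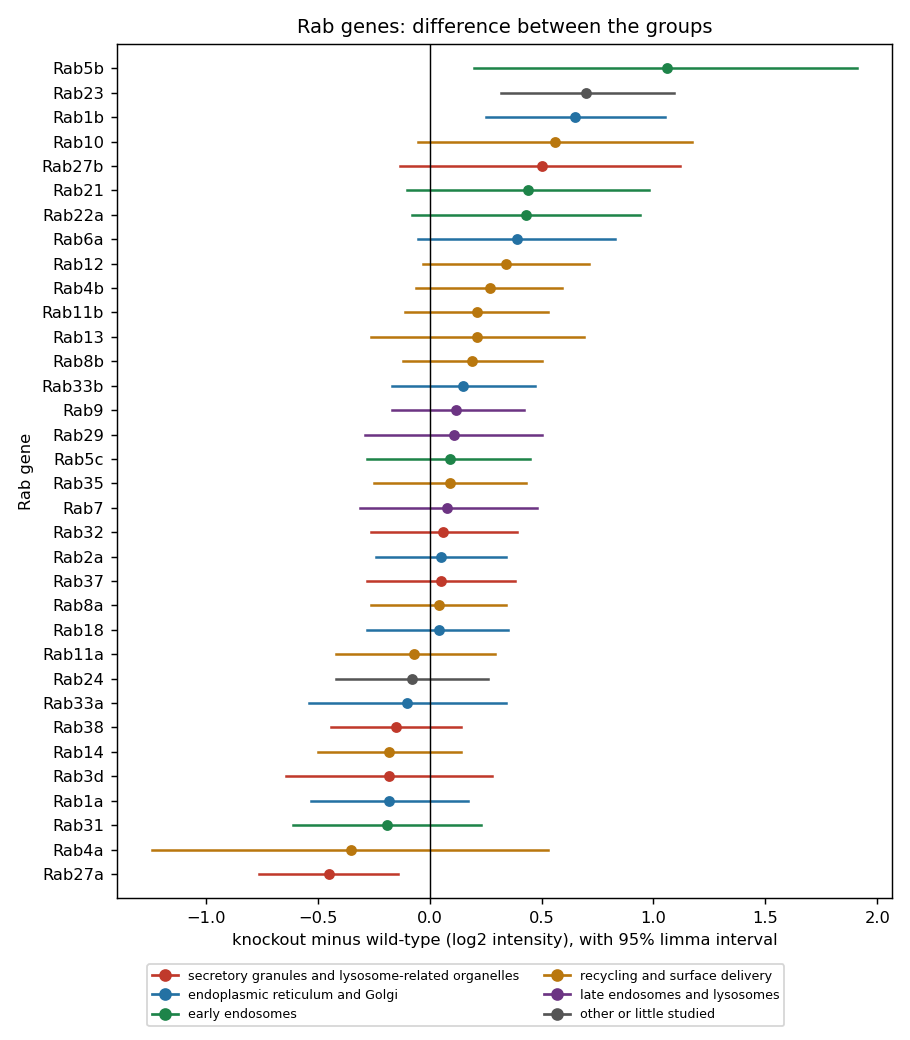
Difference between knockout and wild-type (log2 intensity, x axis) for each of the 34 tested Rab genes (y axis), with its 95% limma interval, coloured by the gene's main role. Differences run from -0.45 (Rab27a) to 1.06 (Rab5b), and the intervals of Rab5b, Rab23, Rab1b and Rab27a exclude 0 before adjustment for multiple testing.

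The secretory granules and lysosome-related organelles held 9 Rab genes, of which 6 were tested, 3 higher and 3 lower by mean, with a median difference of -0.05. Rab27a, which docks granules at the plasma membrane in cytotoxic lymphocytes and melanosomes in melanocytes, lay at 11.57, 11.76 and 11.74 across the wild-type arrays in replicate order and at 11.26, 11.30 and 11.17 in the knockout. Every knockout array was below every wild-type array. The difference was -0.45 (SE 0.13, 95% interval -0.76 to -0.14), 1.36-fold higher in wild-type, with a limma unadjusted p of 0.010 and an adjusted p of 0.32.

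Rab27b, the close relative that mouse platelets need for a normal supply and release of dense granules, lay at 10.69, 9.74 and 9.69 in wild-type and at 10.47, 10.46 and 10.69 in the knockout. Wild-type replicate 1 lay among the knockout arrays and the other 2 wild-type arrays below them, so the groups overlapped. The difference was 0.50 (SE 0.27, 95% interval -0.13 to 1.12, limma adjusted p = 0.42). A second Rab27b probe was detected on no array.

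Rab32 and Rab38 carry cargo to melanosomes and platelet dense granules, and the Rab38 mutant chocolate mouse has a pale coat. Rab32 lay at 12.06, 11.87 and 12.09 in wild-type and at 12, 12.21 and 12.01 in the knockout, with overlapping groups and a difference of 0.06 (SE 0.14, 95% interval -0.26 to 0.39). Rab38 lay at 11.11, 11.15 and 11.09 in wild-type and at 10.90, 10.97 and 11.03 in the knockout. All 3 knockout arrays of Rab38 were below all wild-type arrays, by a gap of 0.061, and the difference was -0.15 (SE 0.13, limma adjusted p = 0.59). Rab3d and Rab37, both known from secretory granules of mast cells and other secretory cells, differed by -0.18 (SE 0.20) and 0.05 (SE 0.14). Rab3d lay at 9.23 in wild-type replicate 1 and 9.75 and 9.73 in the other 2, and at 9.66, 9.26 and 9.25 in the knockout. Its higher arrays were thus wild-type replicates 2 and 3 and knockout replicate 1, the same 3 arrays that were high in Mpo. The neuronal and endocrine Rabs Rab3a, Rab3b and Rab3c were detected on no array.

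**Figure D2:**
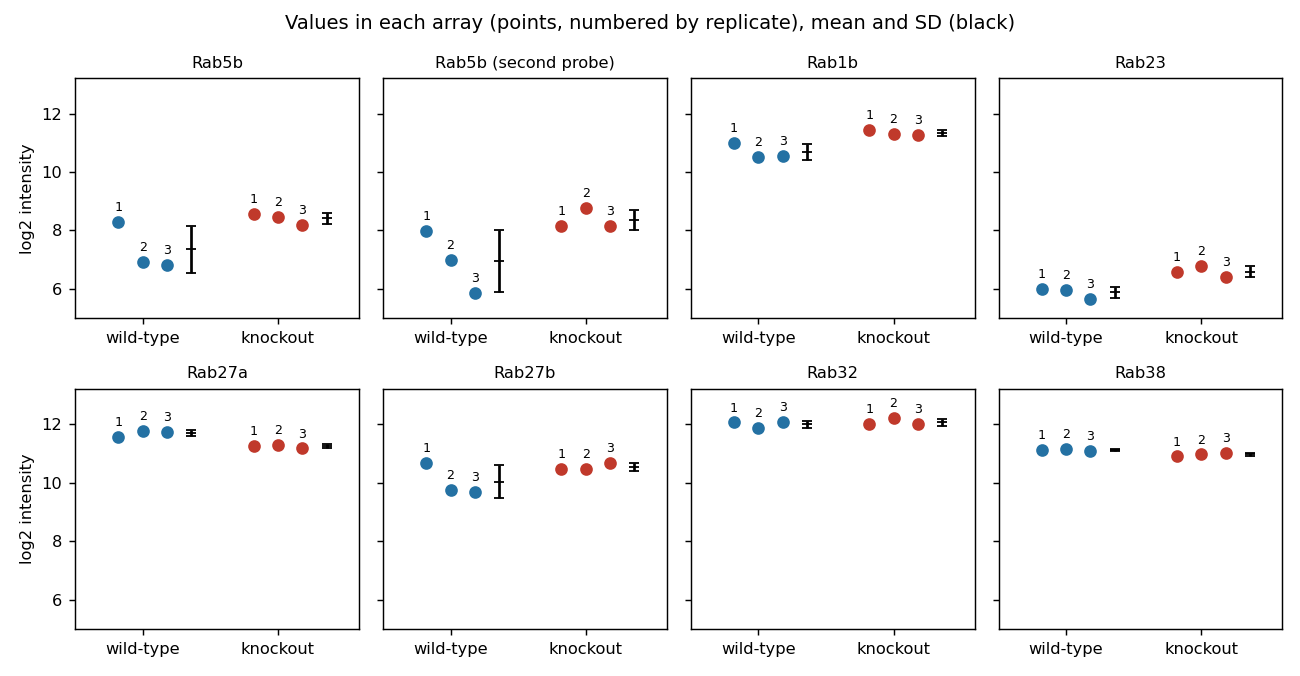
Log2 intensity (y axis) in each wild-type and knockout array (x axis; points numbered by replicate, black bars for mean and SD, 3 arrays a group) for Rab5b and its second probe, Rab1b, Rab23, Rab27a, Rab27b, Rab32 and Rab38. Wild-type replicate 1 lies near the knockout arrays for Rab5b and Rab27b. The groups do not overlap for the second Rab5b probe, Rab1b, Rab23, Rab27a and Rab38.

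Among the 13 Rab genes of the endoplasmic reticulum and Golgi, 7 were tested, 5 higher and 2 lower by mean, with a median difference of 0.05. Rab1b, which moves vesicles from the endoplasmic reticulum to the Golgi, lay at 11, 10.52 and 10.54 in wild-type and at 11.45, 11.29 and 11.27 in the knockout. The groups did not overlap, and wild-type replicate 1 was nearest to the knockout. The difference was 0.65 (SE 0.17, 95% interval 0.25 to 1.05), 1.57-fold, with a limma unadjusted p of 0.0056 and an adjusted p of 0.29. Its paralog Rab1a, with the same role, differed by -0.18 (SE 0.15).

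Rab6a, which serves traffic within and back from the Golgi, lay at 10.30, 9.82 and 9.76 in wild-type and at 10.42, 10.15 and 10.48 in the knockout, a difference of 0.39 (SE 0.19, limma adjusted p = 0.40). A second, dim Rab6a probe, detected on 2 arrays of each group and not tested, gave 0.01. Rab2a, which works between the endoplasmic reticulum and the Golgi, was the steadiest over the 6 arrays, between 12.05 and 12.21, and differed by 0.05 (SE 0.13, 95% interval -0.24 to 0.34). Rab18, found on lipid droplets and the endoplasmic reticulum, differed by 0.04, Rab33a by -0.10 and the autophagy-linked Rab33b by 0.15. Rab2b, Rab30 and Rab43 were detected on no array. Rab6b, Rab39 and Rab39b were each detected on 1 or 2 arrays only and were not tested.

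The early endosome group had the highest median difference of the role groups, 0.43 over 5 tested of 8 genes, with 4 higher and 1 lower by mean and none past the test. That median is the value of the dim Rab22a, and it was 0.23 with normexp at offset 50, 0.16 with no background correction, 0.10 in the authors' processed values and 0.12 without wild-type replicates 2 and 3. Rab5b, which drives the fusion of early endosomes, lay at 8.29, 6.93 and 6.83 in the wild-type arrays, again in replicate order, and at 8.56, 8.47 and 8.20 in the knockout. Wild-type replicate 1 lay within the knockout range and the other 2 wild-type arrays well below it. The difference was 1.06 (SE 0.37, 95% interval 0.20 to 1.91), 2.08-fold, with a limma unadjusted p of 0.022 and an adjusted p of 0.33. A second Rab5b probe lay at 7.98, 7.0 and 5.86 in wild-type and at 8.17, 8.76 and 8.15 in the knockout, with detection on 2 wild-type and 3 knockout arrays. It was tested only through its detection in the knockout, the group where it was higher. Its level of 5.86 in wild-type replicate 3 was below detection, so the size of its difference rests partly on background. The order of its wild-type arrays was the same, its groups were apart by 0.175, and the difference was 1.41 (SE 0.48, limma adjusted p = 0.33). In the authors' processed values, which have a raised floor, the 2 probes differed by 0.41 and 0.51.

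Rab5c, a paralog with the same role, did not share that spread. It lay at 12.86, 12.62 and 12.71 in wild-type and at 12.61, 12.84 and 13.01 in the knockout, a difference of 0.09 (SE 0.16, 95% interval -0.28 to 0.45). Rab5a and Rab20 were detected on no array, and Rab17 was detected on 1 wild-type and 2 knockout arrays and not tested. Rab21, which binds integrins during their uptake, lay at 8.57, 8.81 and 7.98 in wild-type and at 8.84, 9.11 and 8.73 in the knockout, a difference of 0.44 (SE 0.23, limma adjusted p = 0.42). Its wild-type replicate 3 stood lowest, and wild-type replicate 2 lay within the knockout range. Rab22a lay at 6.16, 6.16 and 6.19 in wild-type and at 6.90, 6.10 and 6.81 in the knockout, close to the lowest detected levels of about 5.96 to 6.13 on these arrays. Knockout replicate 2 of Rab22a lay below all wild-type arrays, and the difference was 0.43 (SE 0.22, limma adjusted p = 0.41). Rab31, which works between the Golgi and endosomes, differed by -0.19 (SE 0.18).

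Recycling and delivery to the cell surface was the largest tested role, with 11 of 13 genes tested, 8 higher and 3 lower by mean, and a median difference of 0.19. Rab11a and Rab11b act on recycling endosomes. Rab11a, the Rab gene with the CArG box shown above, lay at 9.71, 9.43 and 9.56 in wild-type and at 9.32, 9.66 and 9.52 in the knockout. Its groups overlapped and its difference was -0.07 (SE 0.15, 95% interval -0.42 to 0.29). Rab11b lay at 13.57, 13.30 and 13.45 in wild-type and at 13.73, 13.59 and 13.62 in the knockout, apart by a gap of 0.02, with a difference of 0.21 (SE 0.14, limma adjusted p = 0.49).

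Rab8a and Rab8b carry secretory vesicles to the cell surface. Rab8a lay between 9.14 and 9.31 in wild-type and between 9.23 and 9.29 in the knockout, with a difference of 0.04 (SE 0.13, 95% interval -0.26 to 0.34). Rab8b lay at 13.31, 13.10 and 13.15 in wild-type and at 13.37, 13.31 and 13.43 in the knockout, a difference of 0.19 (SE 0.13), and its groups were apart by only 0.003. Another bright Rab8b probe differed by 0.05, with overlapping groups, and a dim tested one by 0.27 (SE 0.47).

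Rab10, which delivers the insulin-responsive glucose transporter to the surface of fat cells, lay at 10.57, 10.07 and 9.46 in wild-type and at 10.55, 10.70 and 10.53 in the knockout. Wild-type replicate 1 lay among the knockout arrays and wild-type replicate 3 lowest. The difference was 0.56 (SE 0.26, 95% interval -0.05 to 1.17, limma adjusted p = 0.39), and a second Rab10 probe gave -0.12 (SE 0.27). Rab4a and Rab4b return cargo quickly from early endosomes to the surface. Rab4a was the least precise, at 7.27, 8.0 and 7.70 in wild-type and at 6.41, 7.90 and 7.59 in the knockout, where replicate 1 was far below the rest. The difference of Rab4a was -0.35 (SE 0.38), and without knockout replicate 1 it was 0.09. Rab4b lay at 9.03, 8.87 and 8.92 in wild-type and at 9.37, 9.16 and 9.08 in the knockout, apart by 0.052, with a difference of 0.27 (SE 0.14, limma adjusted p = 0.42).

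Rab12, which acts in the degradation of transferrin receptor, lay at 7.88, 7.72 and 7.73 in wild-type and at 8.35, 7.89 and 8.12 in the knockout. These groups were apart by 0.012, and the difference was 0.34 (SE 0.16, limma adjusted p = 0.38). Rab14, which works between the Golgi and endosomes, lay at 12.02, 12.26 and 12.28 in wild-type and at 11.97, 12.06 and 11.98 in the knockout. Its wild-type replicate 1 lay within the knockout range, and the difference was -0.18 (SE 0.14). Rab13, a Rab of tight junctions, and Rab35, which acts in recycling and actin-rich protrusions, differed by 0.21 (SE 0.21) and 0.09 (SE 0.15). Rab15 was detected on no array, and the epithelial Rab25 was detected on 2 arrays of each group and not tested.

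The late endosome and lysosome Rabs had the narrowest spread of differences of the role groups. All 3 tested of 6 genes were higher in the knockout by 0.08 to 0.12 by mean, less than their standard errors. Rab7, the main Rab of late endosomes, lay at 11.59, 11.52 and 11.19 in wild-type and at 11.29, 11.65 and 11.60 in the knockout, a difference of 0.08 (SE 0.17, 95% interval -0.31 to 0.48), and 2 further probes gave -0.04 and 0.20. Rab9, which returns receptors from late endosomes to the Golgi, lay between 7.40 and 7.49 in wild-type and between 7.51 and 7.63 in the knockout, apart by 0.023, with a difference of 0.12 (SE 0.13). Rab29 differed by 0.11 (SE 0.17). Rab9b was detected on no array, and Rab7b and Rab36 were not tested.

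Of the 4 remaining genes 2 were tested. Rab23, an inhibitor of Hedgehog signalling in mouse embryos, lay at 6.01, 5.98 and 5.67 in wild-type and at 6.57, 6.79 and 6.41 in the knockout. The groups did not overlap, but the signal was dim, and it was detected on 1 wild-type array and on 3 knockout arrays, so that its higher knockout level itself brought it into the test. The difference was 0.70 (SE 0.17, 95% interval 0.32 to 1.09), with a limma unadjusted p of 0.0031 and an adjusted p of 0.27. Its size moved with the background step, to 0.38 with normexp at offset 50, 0.26 with no background correction and 0.15 in the authors' processed values. Rab24 lay between 9.87 and 10.04 in wild-type and at 9.69, 10.02 and 9.94 in the knockout, a difference of -0.08 (SE 0.15). Its second probe lay at 9.75, 9.69 and 9.59 against 9.98, 9.94 and 9.85, with the groups apart in the other direction and a difference of 0.25 (limma adjusted p = 0.42), so the probes disagreed in sign. Rab19 and Rab40b were detected on no array.

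Read without a model, the 3 knockout arrays lay wholly above or wholly below the 3 wild-type arrays for 9 of the 34 Rab genes (26.5%), against 18.9% of all tested probes. Over genes and probes detected on all 6 arrays, which leaves out Rab23, the count was 8 of 33 (24.2%, against 17.9%). Those higher in the knockout were Rab1b, Rab4b, Rab8b, Rab9, Rab11b, Rab12 and Rab23, and those lower were Rab27a and Rab38. Leaving out wild-type replicate 1 raised this to 18 Rab genes (52.9%), and to 46.8% of all tested probes. Leaving out any other single array gave 10 to 14 Rab genes (29.4% to 41.2%, against 22.9% to 31.0% of all tested probes). The 34 genes were steady over the 6 arrays compared with the rest, with a median range from lowest to highest array of 0.48 against 0.63 over all tested genes, as a description. Their median SD was 0.13 in wild-type, against 0.2 over all tested genes, but 0.16 in the knockout, against 0.18. The range was above 1 for 6 Rab genes, Rab4a, Rab5b, Rab10, Rab21, Rab23 and Rab27b (17.6%, near the 19.7% of all tested genes).

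**Figure D3:**
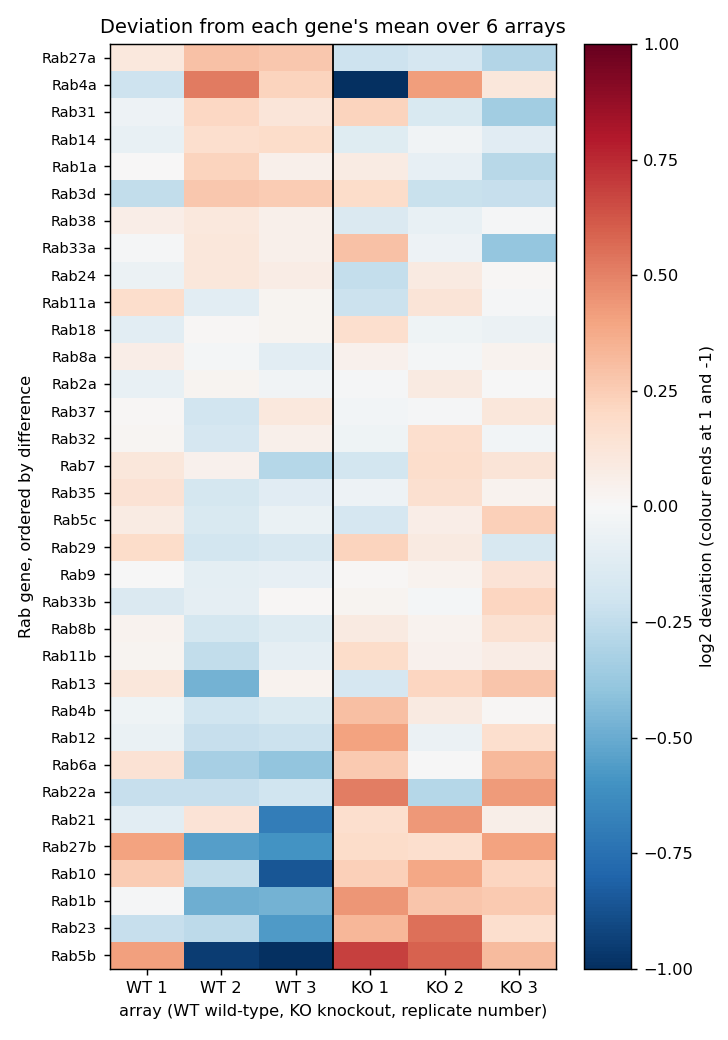
Log2 deviation of each of the 34 tested Rab genes (y axis, ordered by difference) from its own mean over the 6 arrays (x axis; WT wild-type, KO knockout), with the colour scale ending at 1 and -1. Wild-type replicates 2 and 3 are low and wild-type replicate 1 high for Rab5b, Rab27b and Rab6a, and knockout replicate 1 is low for Rab4a.

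Several differences were smaller without wild-type replicates 2 and 3, the arrays with high Mpo and Cpa3. Without wild-type replicate 1, 3 Rab genes passed the limma test (8.82% of those tested, against 6.80% of all tested probes). These were Rab5b at 1.53 (SE 0.16, adjusted p = 0.005), Rab1b at 0.81 (SE 0.14, adjusted p = 0.025) and Rab27b at 0.82 (SE 0.15, adjusted p = 0.027). With wild-type replicates 2 and 3 left out instead, wild-type replicate 1 is the only wild-type array, and the values rest on it alone. Rab5b then differed by 0.12, Rab27b by -0.15, Rab10 by 0.03 and Rab6a by 0.05, while Rab1b kept its sign at 0.34. The mast cell and basophil marker mean is high in wild-type replicates 2 and 3 and low in the other 4 arrays. Using it as a term in the model therefore sets apart the same arrays and adds little to the values without them. With it, Rab5b differed by 0.28, Rab1b by 0.40 and Rab27b by -0.02. With the granulocyte marker mean instead, the values were 0.90, 0.62 and 0.37. Rab27a and Rab23 moved less, to -0.33 and 0.58 without the 2 arrays and to -0.36 and 0.59 with the mast cell and basophil term. Whether other cells in the culture account for the values of wild-type replicates 2 and 3 was not tested. When limma estimated a weight for each array, 8 Rab genes passed (23.5%, against 20.8% of all tested probes), which were Rab1b, Rab5b, Rab6a, Rab10, Rab13, Rab23, Rab27a and Rab27b.

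**Figure D4:**
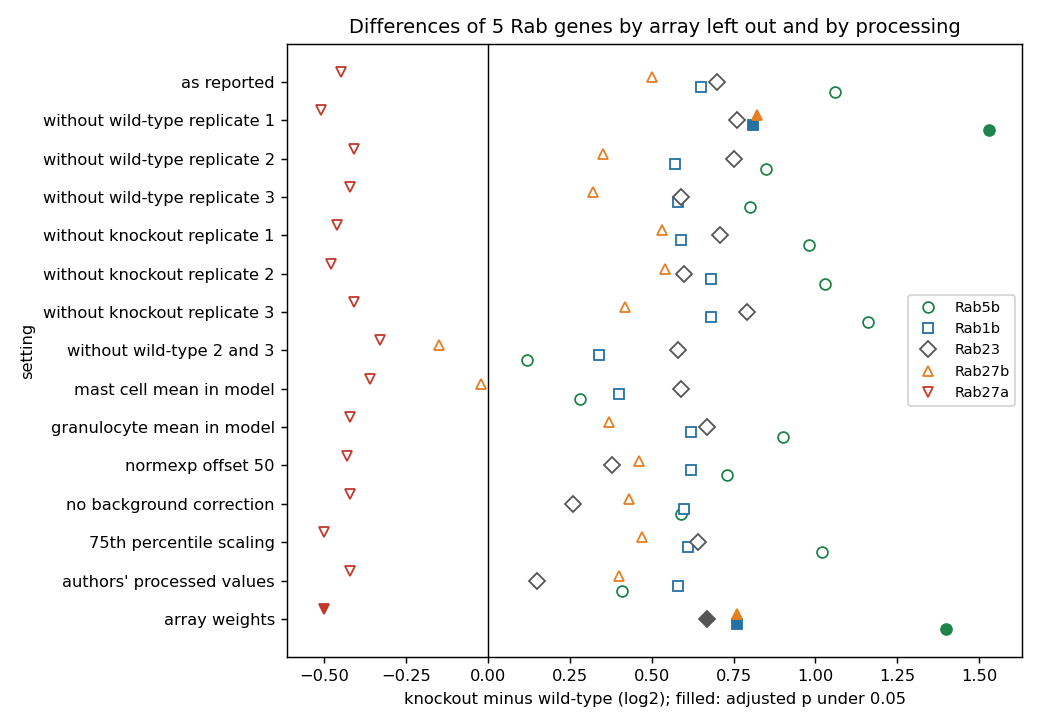
Difference between knockout and wild-type (log2, x axis) for Rab5b, Rab1b, Rab23, Rab27b and Rab27a in each setting (y axis), filled where the limma adjusted p was under 0.05. Rab5b moves from 1.06 to 0.12 and Rab27b changes sign to -0.15 without wild-type replicates 2 and 3, a setting with a lone wild-type array. Rab27a stays between -0.51 and -0.33 over the settings shown.

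Paralogs that share a number were set against each other within each array, which cancels what both probes share on that array. There were 7 such pairs. With 3 arrays against 3 the exact two-sided permutation p cannot go below 0.10, and the smallest adjusted over the 7 pairs was 0.18. Rab27b minus Rab27a was -0.88, -2.01 and -2.05 in wild-type and -0.79, -0.84 and -0.48 in the knockout, a change of 0.95 (exact permutation p = 0.10). Wild-type replicate 1 was within 0.1 of knockout replicates 1 and 2 in this ratio. Rab1b minus Rab1a was 0.09, -0.61 and -0.43 in wild-type and 0.47, 0.46 and 0.64 in the knockout, a change of 0.84 (exact permutation p = 0.10). Rab5c minus Rab5b changed by -0.97, with overlapping groups (exact permutation p = 0.20).

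The regulators and partners of Rab proteins also had 0 members past the limma test in each list, where 0.160% of all tested probes passed. At so low a share, a count of 0 in lists of this size says little about their members. Of 7 escort, dissociation and prenylation factors on the array 5 were tested, 0 at an unadjusted p under 0.05, with a median difference of 0.11. Rabggtb, the catalytic subunit of the transferase that adds the lipid tails, differed by 0.33 (SE 0.16), and its partner subunit Rabggta by -0.23 (SE 0.21). Of 33 exchange factors 26 were tested, 13 higher and 13 lower by mean, and 6 had an unadjusted p under 0.05 (23.1%, against 13.7% of all tested probes). The 3 with the smallest p were the DENN domain exchange factors Dennd1a, Dennd6b and Dennd4b. Their differences were 0.82 (SE 0.30), 0.63 (SE 0.20) and 0.47 (SE 0.17), with limma adjusted p of 0.33, 0.32 and 0.33. These probes were dim, with Dennd6b at 6.18, 6.61 and 6.26 in wild-type, near the lowest detected levels. In the authors' processed values the differences were 0.22, 0.15 and 0.14. Dennd1a lay at 7.13, 6.16 and 6.20 in wild-type and at 7.57, 6.91 and 7.49 in the knockout. Its wild-type replicate 1 lay within the knockout range, so the groups overlapped.

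Of 33 GTPase-activating proteins 22 were tested, 11 higher and 11 lower by mean, with 1 at an unadjusted p under 0.05 (4.55%), Tbc1d19 (-0.40, SE 0.17). Of 46 effectors 27 were tested, with a median difference of 0.01 and 2 at an unadjusted p under 0.05 (7.41%). These were Vps33a (0.54, SE 0.22) and Vps33b (0.32, SE 0.14), the tethering complex subunits, of which Vps33b is needed for platelet alpha granules. The SNARE list, the fusion proteins of platelet granule release and their regulators, had 20 tested of 23, with 3 at an unadjusted p under 0.05 (15%, near the 13.7% of all tested probes). Stxbp2 lay at 12.98, 12.95 and 12.99 in wild-type and at 13.46, 13.43 and 13.34 in the knockout, a difference of 0.44 (SE 0.13). Snap23 lay at 10.41, 10.39 and 10.17 in wild-type and at 10.79, 10.84 and 10.73 in the knockout, a difference of 0.46 (SE 0.14). Both had groups that did not overlap and a limma adjusted p of 0.32, and Stx4a differed by 0.39 (SE 0.17).

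Of other families of small GTPases, the Ras family and the Arf and Arl family each had 0 members past the limma test, against 0.160% of all tested probes. At an unadjusted p under 0.05, 13.7% of all tested probes were counted. The Ras family had 10 tested of 17, with a median difference of 0.10 and 1 at that threshold (10%), Rap2a (0.47, SE 0.19). The Arf and Arl family had 13 tested of 16, with a median of 0.04 and 1 at that threshold (7.69%), Arf3 (0.42, SE 0.14). Both shares were below that of all tested probes.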

How the data were processed

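The deposited raw data hold, per the file headers, each probe's raw intensity on a linear scale with its bead count, its standard error across beads and a detection p-value against negative control beads. BeadStudio 3.2 and lumi are named in the submitters' processing notes, without roles. The authors' processed values were log2-like, with a lowest value of 7.80 and a median of 8.22 on every array; their transform is not given in the sources used here. Each processed column correlated best with its own raw column (0.905 or more, against at most 0.544). Tested Rab probes had 18 to 62 beads per array, with a median bead standard error of 5.35% of the raw intensity; the number of arrays limits precision.

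Raw intensities were corrected by normexp with control levels inferred from detection p-values (offset 16), quantile normalized and converted to log2 with limma 3.58.1 (neqc) in R 4.3.3. Of 24611 probes, 9403 with detection p under 0.05 on all 3 arrays of a group were tested with lmFit and eBayes, two-sided, adjusted by Benjamini-Hochberg over all of them. The procedure was also run on simulated data with independent noise, which hold no deviations shared by many probes of an array. An adjusted p under 0.05 counted as passing. The platform annotation gave 1 symbol to 20983 probes, several to 1 and none to 3627.

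Named Rab genes were those past the test, the 10 with the smallest p, the 5 of highest mean level, Rab27a, Rab27b, Rab32, Rab38, Rab8a, Rab11a, Rab4a and Rab7, and those whose probes differed in sign or call, 23 in all; of other lists, up to 3 with the smallest p. The remaining tested Rab genes are given with their difference, and the untested ones are named without it. The members, lists and rules were chosen with earlier results of these data known. A further list is not reported here. Alternatives changed the background correction, scaling, filter, variance model, array weights, probe averaging, block, arrays used and marker covariates. Replicate numbers did not pair arrays (correlations of deviations -0.273, -0.131 and -0.089).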

Additional observations from a re-analysis of the deposited data

How the results depend on the processing

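Each setting replaced 1 planned choice, though the authors' processed values replace background step, transform and normalization together, and trend and robust moderation were set together. The count of Rab genes past the limma test stayed at 0 except with array weights (8) and when arrays were left out in turn (0 to 3, with 3 without wild-type replicate 1). Over all tested probes the 15 that passed became 9 with no filter, 9 with the stricter filter, 1955 with array weights, 6 with the replicate block and 7 to 639 when arrays were left out in turn, the 639 without wild-type replicate 1. No pairing of arrays by number was found, 0 of 6 arrays correlating best with their own number, and the replicate block left 0 Rab genes. With array weights 20.8% of all tested probes passed. They also gave 1 of 5 tested escort or prenylation factors, 7 of 26 exchange factors and 2 of 22 GTPase-activating proteins. Of effectors 7 of 27 passed, of the SNARE list 4 of 20, of Ras genes 1 of 10 and of Arf or Arl genes 2 of 13. Leaving out arrays in turn gave 0 to 2 of 26 exchange factors and 0 to 1 of 22 GTPase-activating proteins. The highest counts came without wild-type replicate 1, where 6.80% of all tested probes passed. The Rab median difference ranged from 0.02 to 0.19. Signs that turned belonged to differences near 0 and to Rab27b and Rab4a. Scaling to the 75th percentile gave Rab2a -0.01 and Rab32 -0.01, and array weights gave Rab11a 0.10. Without wild-type replicates 2 and 3, where the lone wild-type array is assumed to vary like the knockout, Rab5c was -0.05, Rab4a 0.03, Rab7 -0.07, Rab8a -0.05, Rab27b -0.15 and Rab24 0.01. With a term for the mean of the mast cell and basophil markers, Rab5c was -0.02, Rab7 -0.05, Rab8a -0.03 and Rab27b -0.02. Leaving out arrays in turn gave ranges of -0.04 to 0.20 for Rab7, -0.01 to 0.08 for Rab8a, -0.66 to 0.09 for Rab4a, -0.15 to 0.02 for Rab11a, -0.15 to 0.01 for Rab24, -0.01 to 0.10 for Rab32 and -0.01 to 0.19 for Rab5c. The cause was not tested. An offset shrinks differences of dim probes, which limits Rab23 and Rab22a, and the 12 Rab genes detected on no array have no measured difference.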
